A study of Caenorhabditis elegans with 27 samples.

Results

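The muscle sarcomere and attachment genes are a set of 37 genes that build the thick and thin filaments of worm muscle and fix them to the cell surface. They were taken by symbol from a written list, and all 37 were found among the 46934 gene IDs of the table. The lowest count of a member in any library was 150, and all 37 stayed in the 19290 genes tested. Whole worms of Caenorhabditis elegans strain N2, the wild type, were sequenced at different ages. BRE groups were fed Escherichia coli OP50 with black rice extract and were taken at days 6, 11, 15 and 17. OP50 groups had no extract and were taken at days 1, 6, 11, 15 and 17. Days are counted from the L4 larval stage, the worms were kept at 20 °C, and each of the 9 groups has 3 libraries, biological replicates in the series' design text. About 1000 worms went into a sample. Concentrations of 0, 0.42, 1.04 and 1.67 mg/mL are listed for the extract, without the one given to the sequenced worms. Day 1 has no BRE group. Whole-worm RNA holds every tissue together, and any embryos inside the worms.

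Worm body wall muscle is obliquely striated, and its sarcomeres are anchored to the cell membrane beneath the epidermis. Thick filaments of myosin and paramyosin are anchored at the M-line, and thin filaments of actin, tropomyosin and troponin are held by dense bodies, which correspond to vertebrate Z-discs. Both structures rest on integrin in the membrane and on perlecan in the matrix outside. The pharynx, the feeding pump, has muscle of its own with myosin heavy chains that the body wall does not use. Loss of order in body wall sarcomeres is a well-known feature of old worms. In whole-worm RNA, fewer muscle cells and less RNA per muscle cell cannot be told apart.

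Each library held between 101.61 and 164.34 M counts (median 137.09 M). Values are in CPM, counts scaled to a common library size after TMM normalization, and differences are log2 fold changes from edgeR. A gene was called, and is said to have risen or fallen, at an adjusted p under 0.05 over the 19290 genes tested. The defining markers of both muscles were present in every group: myo-3 and unc-54 for body wall, myo-1 and myo-2 for pharynx. Some libraries stand apart in other tissues. Major sperm protein transcripts summed to 101 CPM, before TMM scaling, in OP50 day 15 replicate 3, 68.5 in OP50 day 17 replicate 1, 44.2 in BRE day 11 replicate 1 and 27.8 in OP50 day 11 replicate 1, against at most 20.4 in the other 23 libraries, a value from OP50 day 1 replicate 1. Counts of members called without these 4 libraries stand beside the results.

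At day 1 the 37 members together took 0.902% ± 0.107 of all counts (SD, n = 3). Per length of exon the actins led: act-2 had 1582 ± 33.4 and act-4 1059 ± 209.5 CPM per kb (SD, n = 3 each). The regulatory myosin light chain gene mlc-2 followed with 783 ± 25.1 CPM per kb, and its near-identical neighbour mlc-1 had 240.4 ± 21. Counts of near-identical copies, here the actin genes and the pair mlc-1 and mlc-2, depend on how shared reads were assigned, which the sources used here do not give. The main body wall myosin heavy chain unc-54 had 209.6 ± 53.5 CPM per kb and paramyosin unc-15 199 ± 53.2, which do not differ beyond their spread. The second body wall heavy chain, myo-3, had 9.09 ± 1.11 CPM per kb, and the pharyngeal heavy chains myo-2 and myo-1 had 3.86 ± 0.524 and 3.51 ± 0.173. The titin-like gene ttn-1, with 56044 bp of exon the longest member, was lowest at 0.58 ± 0.0957 CPM per kb.

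The first question was how the set changed with age when no extract was given. Most of the set fell between day 1 and day 6 and stayed below day 1 afterwards. At day 17 the deepest differences were those of the troponin T gene tnt-2, the main body wall myosin unc-54, the myosin light chain mlc-1 and the troponin I gene unc-27, and 6 members, 4 of them in the integrin complex, lay above day 1. The members together took 0.389% ± 0.0529 of counts on day 6 in OP50 worms, 0.352% ± 0.0194 on day 11, 0.371% ± 0.0103 on day 15 and 0.399% ± 0.0421 on day 17 (SD, n = 3 each). From day 6 on the actins made up most of this sum. They took 0.384% ± 0.0368 on day 1, 0.246% ± 0.0268 on day 6 and 0.256% ± 0.0407 on day 17. The body wall myosin and thick filament genes took 0.165% ± 0.0434 on day 1 and 0.0198% ± 0.00815 on day 17. At day 6, 29 of the 37 fell and none rose, where 19% of all genes tested fell and 14% rose. At day 11, 32 fell and none rose, against 16.6% and 19.2% of all genes. At day 15, 27 fell and none rose, against 21.1% and 26.1%. At day 17, 25 fell and 1, the PINCH adaptor gene unc-97, rose, against 24.8% and 29.1%. The median log2 difference of the members was -1.76 on day 6, -1.74 on day 11, -1.31 on day 15 and -1.14 on day 17, beside -0.0995, 0.0678, 0.0891 and 0.103 over all genes tested. These 4 comparisons share the day 1 libraries. Without the 4 libraries rich in sperm transcripts, 30 members fell and 0 rose on day 6, against 19.6% and 16% of all genes, and 28 fell and 1 rose on day 11, against 13.1% and 18.2%. In the same setting 25 fell and 0 rose on day 15, against 17.5% and 23.9%, and 21 fell and 2 rose on day 17, against 19.9% and 29.6%.

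**Figure D1:**
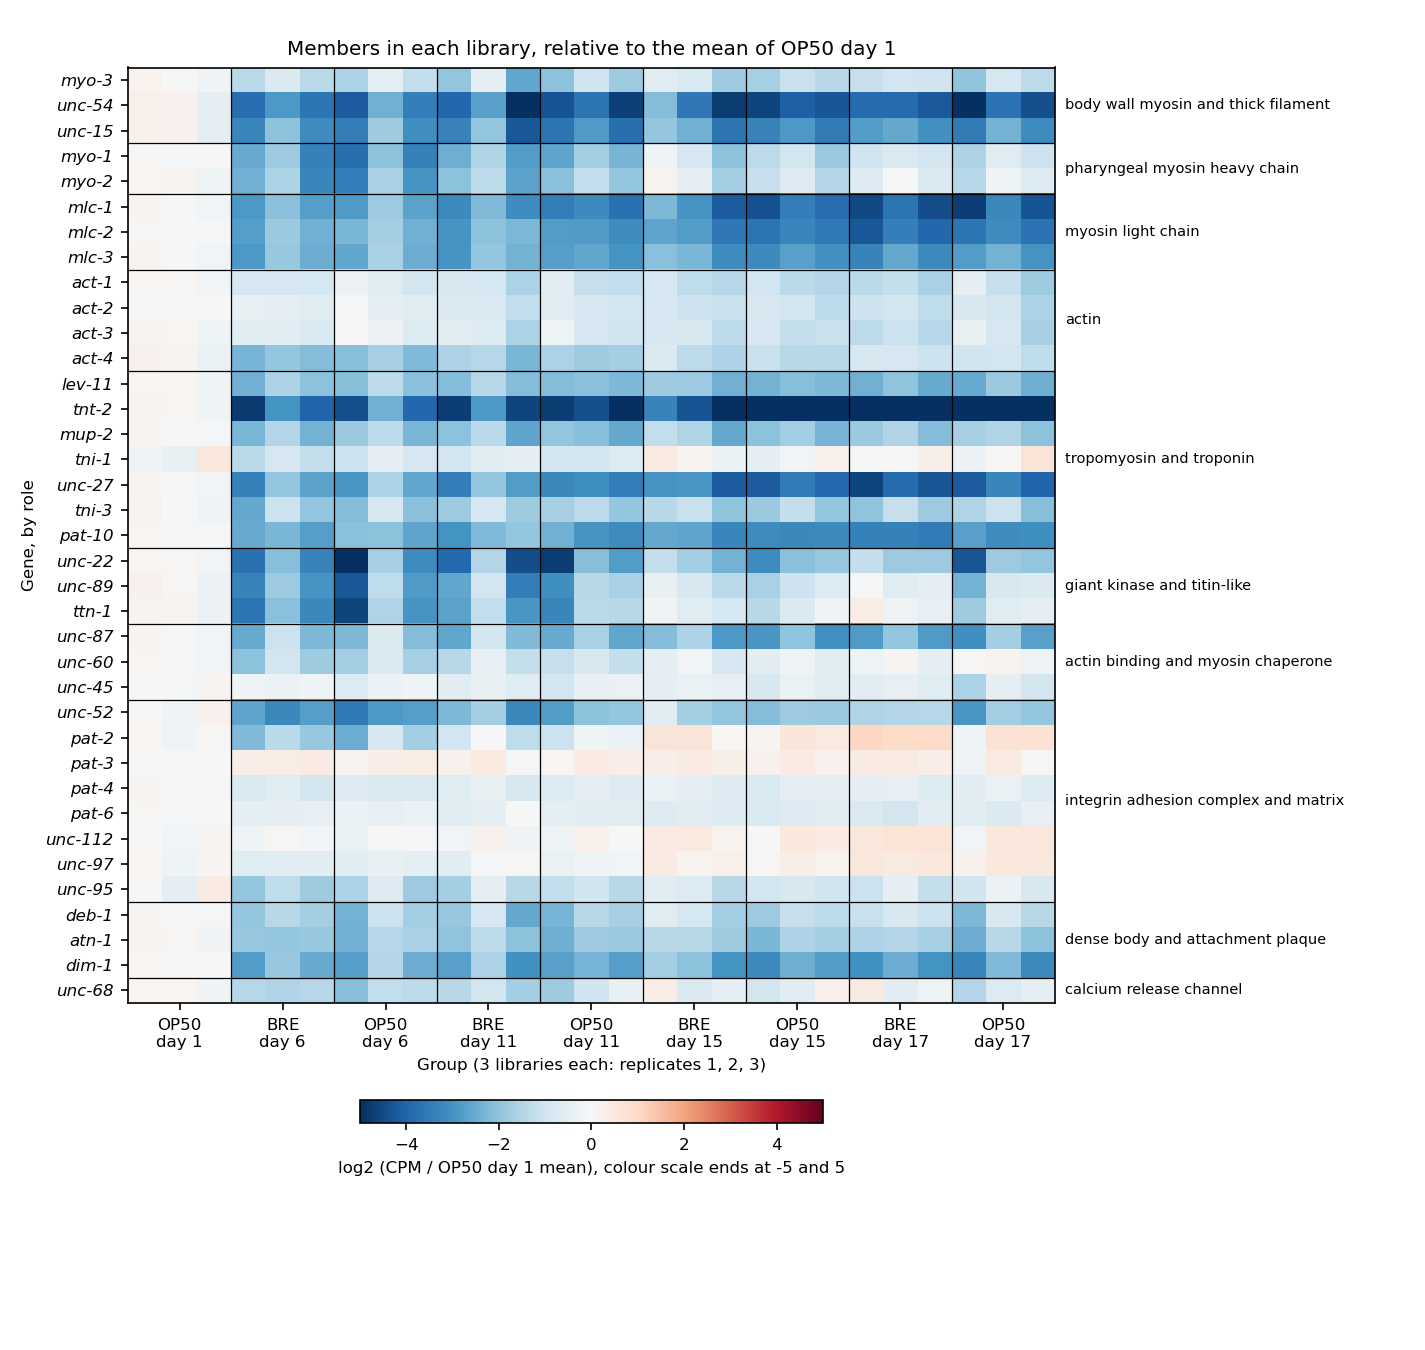
Each cell is the log2 ratio of a member's CPM in 1 library to the mean of the 3 OP50 day 1 libraries, with the 37 members in rows by role and the 27 libraries in columns by group. The troponin T gene tnt-2 and unc-54 are among the darkest rows from day 6 on, while pat-3 and unc-112 stay near or above the day 1 level.

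Of the body wall myosin heavy chains, unc-54 had the larger difference. The gene unc-54 (chromosome I, 14855901 to 14863482 in the WBcel235 annotation) encodes the most abundant heavy chain of body wall thick filaments. In BRE worms unc-54 read 89.7, 174 and 104.9 CPM at day 6, 82.8, 191 and 30.6 at day 11, 279, 106 and 47.8 at day 15 and 87.7, 88.8 and 69.8 at day 17. In OP50 worms unc-54 read 1498, 1487 and 917 CPM at day 1, 70.2, 239 and 119 at day 6, 63.1, 100.4 and 49.6 at day 11, 53.1, 74.3 and 65.1 at day 15 and 38.7, 97.6 and 59.8 at day 17. No library from day 6 on reached the lowest day 1 library, and the day 17 difference from day 1 was -4.31 (SE 0.64, adjusted p = 6.69e-06). In BRE day 15, replicate 1 stood well above the other 2 of its group.

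The heavy chain gene myo-3 (chromosome V, 12226817 to 12234343), whose product sits at the centre of the thick filament, was not called at day 6, with -1.01 (SE 0.42, adjusted p = 0.0707), and was called at the later ages. In BRE worms myo-3 read 21.7, 33.5 and 22 CPM at day 6, 14.2, 39.8 and 9.21 at day 11, 36.6, 32.5 and 15.9 at day 15 and 24.7, 28.1 and 27.4 at day 17. In OP50 worms myo-3 read 62.0, 55.9 and 48.5 CPM at day 1, 18.2, 40.7 and 23.5 at day 6, 13.2, 27.7 and 15.5 at day 11, 17.6, 25.3 and 21.4 at day 15 and 13.5, 31.2 and 22.4 at day 17. All later OP50 libraries lay below those of day 1, and the difference was -1.31 (SE 0.43, adjusted p = 0.013) at day 17. Within each of the OP50 groups from day 6 on, replicate 2 was the highest. Paramyosin unc-15, the core protein of the thick filament, averaged 87.2 ± 35.8 CPM at OP50 day 17, against 682 ± 182 at OP50 day 1 (n = 3 each, with SD), a difference of -2.97 (SE 0.54, adjusted p = 8.67e-05).

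Both pharyngeal heavy chains fell at day 6, and at day 17 neither was called against day 1 in the main fit. With a block on the replicate number, both were called at day 17. The gene myo-1 was also called there when only the groups compared were fitted or OP50 day 17 replicate 2 was left out. The gene myo-2 (chromosome X, 12468061 to 12475348) is expressed in pharyngeal muscle alone. In BRE worms myo-2 read 4.57, 8.22 and 2.51 CPM at day 6, 5.90, 9.74 and 3.84 at day 11, 27.6, 17.3 and 7.52 at day 15 and 15.7, 22.4 and 14.8 at day 17. In OP50 worms myo-2 read 26.2, 26.5 and 20.6 CPM at day 1, 2.22, 7.92 and 3.13 at day 6, 5.72, 10.3 and 6.27 at day 11, 10.8, 15.4 and 8.84 at day 15 and 9.15, 21 and 15.1 at day 17. Its difference from day 1 was -2.46 (SE 0.51, adjusted p = 0.000756) at day 6 and -0.69 (SE 0.48, adjusted p = 0.231) at day 17. In both diets the lowest library was at day 6. The other pharyngeal heavy chain, myo-1 (chromosome I, 7258946 to 7267057), fell at day 6 too. In BRE worms myo-1 read 4.0, 6.4 and 2.18 CPM at day 6, 4.20, 7.97 and 3.27 at day 11, 19.5, 12.6 and 5.42 at day 15 and 11.2, 13.2 and 11.9 at day 17. In OP50 worms myo-1 read 23.7, 21.5 and 22.8 CPM at day 1, 1.66, 5.42 and 2.20 at day 6, 3.64, 6.87 and 4.58 at day 11, 9.16, 12 and 6.29 at day 15 and 7.77, 15.0 and 11.1 at day 17. Its difference from day 1 was -2.87 (SE 0.49, adjusted p = 0.000108) at day 6 and -1.01 (SE 0.46, adjusted p = 0.0666) at day 17. In both genes the day 17 libraries of OP50 worms lay below those of day 1 except for replicate 2 of myo-2, which overlapped.

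**Figure D2:**
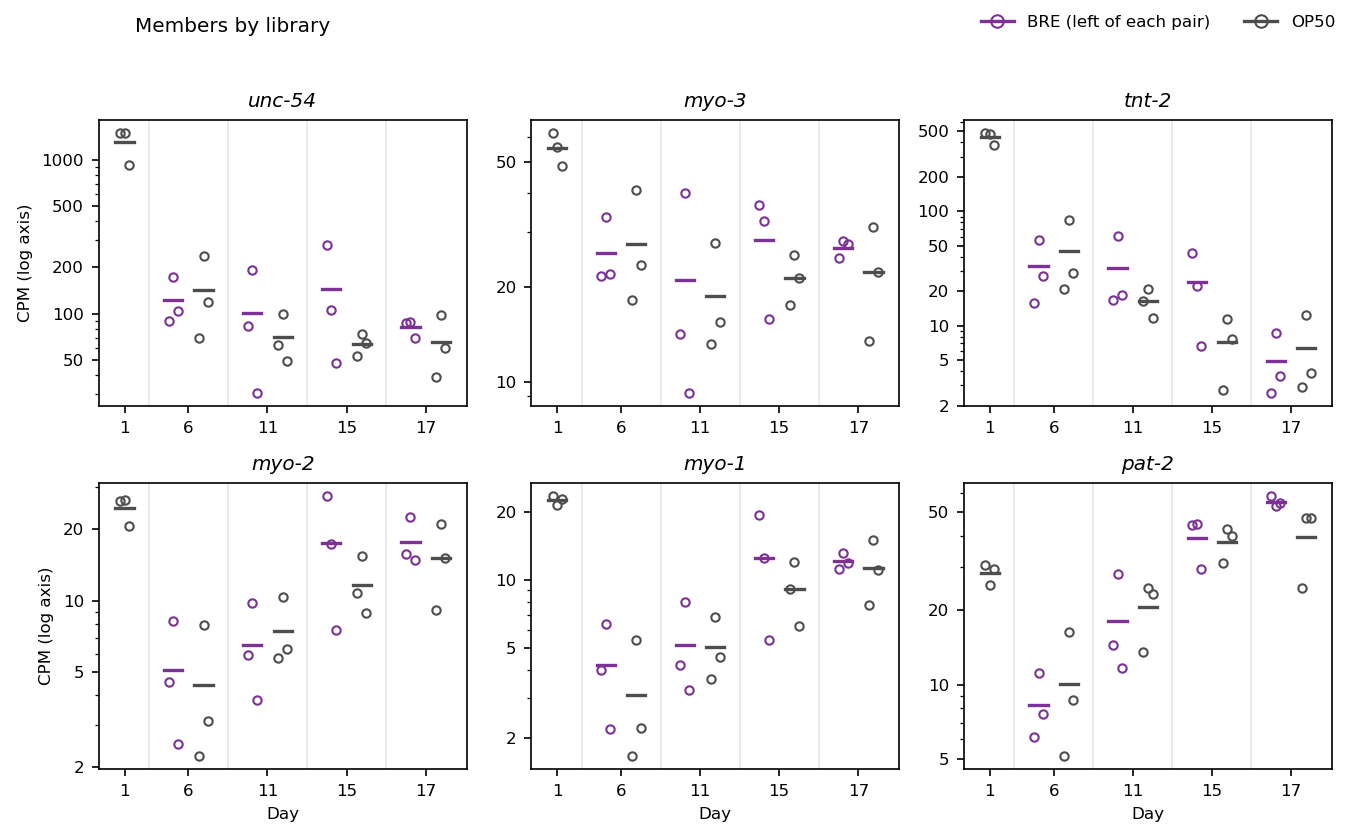
Points are CPM in single libraries on a log axis against day, with BRE to the left of OP50 within a day and a bar at the mean of 3 libraries. unc-54 and tnt-2 stayed low from day 6 on, whereas myo-2, myo-1 and pat-2 were lowest at day 6 and higher at day 17.

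Among the myosin light chains, which bind the neck of the heavy chain, all 3 fell at each age. In BRE worms mlc-2 read 73.6, 139 and 94.1 CPM at day 6, 65.4, 119.9 and 106 at day 11, 81.8, 73.1 and 42.0 at day 15 and 26.4, 46.8 and 33.2 at day 17. In OP50 worms mlc-2 read 518, 502 and 486 CPM at day 1, 103, 155 and 95.3 at day 6, 71.9, 71.3 and 57.7 at day 11, 39.6, 52.7 and 43.9 at day 15 and 40.9, 56.6 and 39.2 at day 17. The highest later library, OP50 day 6 replicate 2, lay far below the lowest of day 1, and the day 17 difference was -3.46 (SE 0.30, adjusted p = 2.58e-09). The other regulatory chain mlc-1 had a day 17 difference of -3.95 (SE 0.47, adjusted p = 3.1e-07) and the essential chain mlc-3 one of -2.69 (SE 0.32, adjusted p = 3.33e-07). In the annotation mlc-2 shares 77 bp of exon with C36E6.2 on the other strand, a gene with 12.3% of its counts, and the sources used here do not say whether counting used strand.

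The actins differed from one another. In BRE worms act-2 read 1558, 1454 and 1318 CPM at day 6, 1242, 1200.5 and 861 at day 11, 1134, 979.7 and 936 at day 15 and 982, 1086 and 852 at day 17. In OP50 worms act-2 read 2027, 1984 and 2069 CPM at day 1, 1877, 1459 and 1344 at day 6, 1329.9, 1119.9 and 1057 at day 11, 1152, 1048 and 819.6 at day 15 and 1153, 1074 and 679 at day 17. The gene act-2, which had the highest mean CPM of the 37, declined gradually and was called from day 11 on, with -1.06 (SE 0.18, adjusted p = 3.88e-05) at day 17. Its neighbours act-1 and act-3 had day 17 differences of -1.03 and -0.87 (adjusted p = 0.00261 and 0.00916). The muscle actin act-4 on chromosome X fell already at day 6, with -2.01 (SE 0.22, adjusted p = 6.04e-07), and averaged 422 ± 89.3 CPM at day 6, against 1695 ± 335 at day 1 (n = 3 each, with SD).

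Tropomyosin and the troponins switch the thin filament on when calcium binds. All 7 fell at day 6 and 6 of 7 at day 17. Tropomyosin, lev-11, had the highest mean CPM of them. In BRE worms lev-11 read 122, 218 and 153 CPM at day 6, 141, 235.3 and 143 at day 11, 187, 179 and 120.4 at day 15 and 121, 156 and 112.4 at day 17. In OP50 worms lev-11 read 689.9, 680.2 and 554 CPM at day 1, 144, 259.9 and 151 at day 6, 143, 150.01 and 136 at day 11, 125, 148 and 136 at day 15 and 111, 175 and 118 at day 17. Every later library lay far below the lowest day 1 value, and the day 17 difference was -2.25 (SE 0.26, adjusted p = 2.13e-07). The body wall troponin C gene pat-10, the calcium sensor, had the smallest adjusted p of all 37 at day 17. In BRE worms pat-10 read 42.6, 49.4 and 35.7 CPM at day 6, 30.8, 52.6 and 63.8 at day 11, 41.5, 39.4 and 25.7 at day 15 and 23.6, 23.4 and 21.7 at day 17. In OP50 worms pat-10 read 259.6, 235.2 and 234 CPM at day 1, 57.1, 58.7 and 39.5 at day 6, 45.9, 31.3 and 27.3 at day 11, 27.3, 26.1 and 26.9 at day 15 and 37.2, 28.1 and 29.1 at day 17. All later OP50 libraries lay far below day 1, with a difference of -2.95 (SE 0.24, adjusted p = 1.48e-09) at day 17. BRE day 11 had the widest range of the pat-10 groups.

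The troponin T gene tnt-2 had the largest fall of any member at each age from day 6 on. In BRE worms tnt-2 read 15.9, 56.3 and 27.4 CPM at day 6, 16.8, 61.2 and 18.4 at day 11, 43.2, 22.4 and 6.63 at day 15 and 2.57, 8.56 and 3.63 at day 17. In OP50 worms tnt-2 read 487, 469 and 379 CPM at day 1, 20.8, 83.8 and 28.9 at day 6, 16.3, 20.8 and 11.7 at day 11, 2.76, 11.4 and 7.6 at day 15 and 2.90, 12.3 and 3.83 at day 17. Its difference was -6.13 (SE 0.86, adjusted p = 3.42e-06) at day 17. The day 17 libraries of both diets were lower than every library of day 6. The other troponin T gene, mup-2, fell by 1.73 (SE 0.34, adjusted p = 0.000176) at day 17. Of the troponin I genes, which hold the filament off at low calcium, unc-27, the main body wall form, fell by 3.75 (SE 0.43, adjusted p = 2.41e-07). The other 2 troponin I genes, tni-3 and tni-1, had day 17 differences of -1.52 (SE 0.40, adjusted p = 0.0029) and 0.13 (SE 0.27, adjusted p = 0.713).

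The giant sarcomere proteins hold the filaments in register and carry kinase domains. In BRE worms unc-22 read 8.49, 25.6 and 11.3 CPM at day 6, 7.64, 40.5 and 5.23 at day 11, 49.7, 34.3 and 21.9 at day 15 and 49, 32.2 and 31.9 at day 17. In OP50 worms unc-22 read 122, 116 and 101 CPM at day 1, 3.13, 36.1 and 12.9 at day 6, 4.25, 25.4 and 16.1 at day 11, 12.7, 26.4 and 30.1 at day 15 and 5.77, 31.8 and 29 at day 17. In twitchin, unc-22, which regulates contraction, the OP50 replicates spread widely, with replicate 1 lowest at each of days 6, 11, 15 and 17. Its day 17 difference was -2.35 (SE 0.80, adjusted p = 0.017). In the annotation unc-22 shares 93 bp of exon with ZK829.9 on the other strand, whose counts were 358% of its own. In BRE worms unc-89 read 9.88, 28.9 and 13.3 CPM at day 6, 16.7, 52.3 and 9.17 at day 11, 77.7, 58.1 and 39.7 at day 15 and 93.9, 66.0 and 73.3 at day 17. In OP50 worms unc-89 read 117, 106 and 83.4 CPM at day 1, 5.43, 42.0 and 14.2 at day 6, 12.2, 38.4 and 32.6 at day 11, 32.8, 48.8 and 62.7 at day 15 and 19.8, 58.4 and 61.2 at day 17. The obscurin-like M-line gene unc-89 fell at days 6 and 11, and at day 17 the difference was -1.14 (SE 0.62, adjusted p = 0.128). The titin-like ttn-1 fell by 2.54 (SE 0.63, adjusted p = 0.0034) at day 6 and had a difference of -0.86 (SE 0.59, adjusted p = 0.227) at day 17.

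Of the genes for filament stability and folding, unc-87, an actin-bundling protein with calponin-like repeats, had the highest mean CPM. In BRE worms unc-87 read 47.6, 131 and 58.0 CPM at day 6, 44.8, 143 and 59.5 at day 11, 61.2, 94.5 and 37.3 at day 15 and 37.9, 69.7 and 38.2 at day 17. In OP50 worms unc-87 read 298, 274 and 245 CPM at day 1, 57.7, 164 and 59.999 at day 6, 47.5, 87.3 and 45.3 at day 11, 36.6, 67.0 and 33.8 at day 15 and 32.7, 84.0 and 41 at day 17. Replicate 2 stood highest in each OP50 group after day 1, and the day 17 difference was -2.38 (SE 0.52, adjusted p = 0.000578). The myosin chaperone gene unc-45 had smaller differences. In BRE worms unc-45 read 77.6, 74.7 and 77.6 CPM at day 6, 61.0, 70.9 and 59.8 at day 11, 65.0, 71.5 and 68.1 at day 15 and 64.1, 68.8 and 59.6 at day 17. In OP50 worms unc-45 read 89.1, 84.1 and 101 CPM at day 1, 56.7, 74.7 and 78.4 at day 6, 47.2, 70.0 and 72.3 at day 11, 52.8, 73.3 and 60.5 at day 15 and 30.8, 65.1 and 48.5 at day 17. Its day 17 difference was -0.92 (SE 0.20, adjusted p = 0.000431). The cofilin gene unc-60, which turns over actin filaments, averaged 45.3 ± 6.4 CPM at OP50 day 17, against 45.1 ± 3.21 at OP50 day 1 (n = 3 each, with SD), a difference of 0.01 (SE 0.29, adjusted p = 0.983). In the annotation unc-60 shares 56 bp of exon with F53E2.2 on the same strand, whose counts are far higher, so its values are uncertain.

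The integrin complex links the filaments to the matrix, and it split by member. The β integrin gene pat-3, which also works outside muscle, did not fall at any age. In BRE worms pat-3 read 217, 223 and 224 CPM at day 6, 197, 239.6 and 164.6 at day 11, 216, 225 and 208 at day 15 and 227, 233 and 216 at day 17. In OP50 worms pat-3 read 174, 166 and 172 CPM at day 1, 194, 215 and 221 at day 6, 181, 228 and 217 at day 11, 199.6, 228 and 197 at day 15 and 141.8, 232 and 180.0 at day 17. The largest difference was 0.30 (SE 0.14, adjusted p = 0.0985) at day 6. Perlecan, unc-52, the matrix ligand, had the deepest fall of the complex. In BRE worms unc-52 read 16.2, 10.9 and 14.8 CPM at day 6, 21.3, 31.6 and 10.9 at day 11, 68.5, 31.6 and 25.7 at day 15 and 36.1, 36.2 and 37.9 at day 17. In OP50 worms unc-52 read 99.8, 88.0 and 118 CPM at day 1, 8.78, 14 and 15.0 at day 6, 14.6, 24.4 and 26.4 at day 11, 22.7, 29 and 27.9 at day 15 and 13.6, 30.2 and 26.7 at day 17. It was -3.02 (SE 0.38, adjusted p = 3.75e-06) at day 6 and -2.12 (SE 0.37, adjusted p = 5.19e-05) at day 17. BRE day 15 replicate 1 was the highest library after day 1, with the next at 37.9 CPM.

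The α integrin gene pat-2 fell by 1.5 (SE 0.36, adjusted p = 0.00285) at day 6 and had a difference of 0.48 (SE 0.35, adjusted p = 0.258) at day 17. Inside the membrane, the integrin-linked kinase gene pat-4 had a day 17 difference of -0.52 (SE 0.14, adjusted p = 0.00447) and the parvin gene pat-6 one of -0.55 (SE 0.14, adjusted p = 0.00186). The kindlin gene unc-112 was not called at any age against day 1, with 0.35 (SE 0.17, adjusted p = 0.0864) at day 17. The adaptor gene unc-97 rose by 0.41 (SE 0.14, adjusted p = 0.0135) at day 17. This call, like that of pat-4, ended when only the libraries of the groups compared were fitted. The LIM-domain gene unc-95 had -0.72 (SE 0.33, adjusted p = 0.0726). In the annotation pat-2 shares 41 bp of exon with F54F2.9 on the other strand, whose counts were 137% of its own.

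All 3 genes of the dense body and attachment plaque fell at each age. The gene dim-1, for an immunoglobulin-domain protein near the dense body, had the highest mean CPM of them. In BRE worms dim-1 read 25.5, 47.8 and 31.4 CPM at day 6, 26.9, 61.3 and 21.6 at day 11, 55.5, 43.4 and 22.6 at day 15 and 21.6, 31.7 and 22.7 at day 17. In OP50 worms dim-1 read 193, 169 and 174 CPM at day 1, 26.2, 65.1 and 32.2 at day 6, 26.9, 35.7 and 26.6 at day 11, 19.7, 32.7 and 25.9 at day 15 and 18.4, 38.3 and 19.8 at day 17. The highest later library, OP50 day 6 replicate 2, lay far below day 1, and the day 17 difference was -2.81 (SE 0.41, adjusted p = 6.38e-06). The α-actinin gene atn-1 crosslinks the thin filaments at the dense body. In BRE worms atn-1 read 24.4, 24.2 and 24.8 CPM at day 6, 22.9, 36.7 and 22 at day 11, 35.2, 35.3 and 26.7 at day 15 and 31.3, 32.7 and 28.9 at day 17. In OP50 worms atn-1 read 100.3, 94.7 and 80.2 CPM at day 1, 17.4, 33.6 and 29.4 at day 6, 17.0, 26 and 25 at day 11, 18.7, 31.4 and 27.8 at day 15 and 16.3, 35 and 21.8 at day 17. The groups of day 6 and later did not overlap day 1, with -1.92 (SE 0.27, adjusted p = 3.89e-06) at day 17. The vinculin gene deb-1 had -1.36 (SE 0.39, adjusted p = 0.00594) at day 17.

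The ryanodine receptor gene unc-68 releases calcium from internal stores. In BRE worms unc-68 read 19.4, 18.5 and 19.4 CPM at day 6, 19.9, 28.0 and 16.1 at day 11, 66.4, 31.6 and 37.5 at day 15 and 72.0, 35.9 and 44.4 at day 17. In OP50 worms unc-68 read 55.4, 55.9 and 46.5 CPM at day 1, 12.1, 22.5 and 21.2 at day 6, 15.3, 26.3 and 40.9 at day 11, 28.1, 36.4 and 62.9 at day 15 and 19, 33.1 and 38.7 at day 17. It fell by 1.5 (SE 0.37, adjusted p = 0.00347) at day 6, and at day 17 the difference was -0.80 (SE 0.36, adjusted p = 0.0694). OP50 day 15 replicate 3 and replicate 1 of BRE days 15 and 17 exceeded every day 1 library.

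With each of the 6 libraries left out in turn, 24 of the 29 calls at day 6 and 21 of the 26 at day 17 held. At day 17, myo-3 was lost without OP50 day 1 replicate 1 or OP50 day 17 replicate 1 (adjusted p = 0.0565 and 0.105), and pat-4 without the same libraries (0.0642 and 0.0593). Without OP50 day 17 replicate 1 unc-22 and deb-1 were lost (0.0916 and 0.0665), and without replicate 3 act-3 (0.0802). At day 6, tni-1, unc-22, unc-89, unc-87 and unc-97 were each lost without OP50 day 6 replicate 1 (0.136, 0.0683, 0.0537, 0.12 and 0.0585). Of these, tni-1, unc-22 and unc-87 were also lost without OP50 day 6 replicate 3 (0.0577, 0.0541 and 0.0955), tni-1 and unc-97 without OP50 day 1 replicate 3 (0.242 and 0.0555), and unc-87 without OP50 day 1 replicate 1 or 2 (0.0652 and 0.0543). At days 11 and 15, 25 of 32 and 20 of 27 calls held. Scaling by library totals alone put the median of all genes at 0.585 at day 17, against 0.103. Under it 18 members fell and 4 rose at day 17, with pat-2, pat-3 and unc-112 joining unc-97, where 11.8% of all genes fell and 47.1% rose. At day 15, 20 fell and 3 rose, against 10% and 44.2% of all genes. It ended the day 17 calls of myo-3, act-3, unc-22, unc-45, pat-4, pat-6 and deb-1. No member called changed sign under the settings run.

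The second question was what changed after day 6, and here the set divided. In BRE worms, day 17 against day 6, 12 members rose and 6 fell, where 32.7% of all genes tested rose and 22% fell. In OP50 worms 10 rose and 7 fell, against 32.5% and 23.5% of all genes. In this fit the shares of the members are close to or below those of all genes. The median of the members was 0.124 in BRE worms, beside 0.209 over all genes, and -0.139 in OP50 worms, beside 0.165.

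Both pharyngeal heavy chains rose after day 6, and no body wall heavy chain was called. In BRE worms myo-1 rose by 1.53 (SE 0.46, adjusted p = 0.00813) and myo-2 by 1.79 (SE 0.50, adjusted p = 0.00437). In OP50 worms myo-1 rose by 1.87 (SE 0.47, adjusted p = 0.00207) and myo-2 by 1.77 (SE 0.50, adjusted p = 0.00485). For unc-54 the difference was -0.58 (SE 0.56, adjusted p = 0.382) in BRE and -1.12 (SE 0.56, adjusted p = 0.0928) in OP50 worms. For myo-3 it was 0.05 (SE 0.42, adjusted p = 0.919) in BRE and -0.30 (SE 0.42, adjusted p = 0.558) in OP50 worms. Without BRE day 6 replicate 3 the rise of myo-1 in BRE worms was 1.23 (adjusted p = 0.0506).

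Members that fell after day 6 were genes of the contractile filaments and, in OP50 worms, unc-45. In BRE worms the differences were -2.75 (SE 0.74, adjusted p = 0.00343) for tnt-2, -1.60 (SE 0.42, adjusted p = 0.00313) for mlc-1, -1.64 (SE 0.40, adjusted p = 0.00159) for unc-27 and -1.53 (SE 0.27, adjusted p = 8.07e-05) for mlc-2. The same 4 fell in OP50 worms, with -2.81, -1.57, -1.5 and -1.37 (adjusted p = 0.003, 0.00356, 0.00323 and 0.000248). Troponin C, pat-10, and act-2 fell in both diets, and unc-45 fell in OP50 worms. Without OP50 day 6 replicate 2, unc-27 in OP50 worms was -0.97 (adjusted p = 0.0526). The unc-45 call ended without any 1 of OP50 day 6 replicates 2 and 3 and OP50 day 17 replicates 1 and 3 (adjusted p 0.051 to 0.283). Under scaling by library totals alone the call of act-2 ended in BRE worms and those of pat-10 and unc-45 in OP50 worms. With that scaling, which put the median of all genes at 0.471 in BRE and 0.489 in OP50 worms, 14 members rose and 5 fell in BRE worms, against 38.7% and 11.1% of all genes. In OP50 worms 13 rose and 5 fell, against 40% and 10.2%.

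Members that rose after day 6 included attachment genes. In BRE worms the α integrin gene pat-2 read 58.4, 53 and 54.4 CPM at day 17 and 6.12, 11.2 and 7.57 at day 6. In OP50 worms it read 24.6, 47.3 and 47.3 CPM at day 17 and 5.13, 16.3 and 8.68 at day 6. Day 17 did not overlap day 6 in either diet. The rise of 2.74 (SE 0.38, adjusted p = 3.15e-06) in BRE worms was second to that of ttn-1, and the rise of 1.98 (SE 0.37, adjusted p = 0.000115) in OP50 worms was the largest of any member there. The adaptor gene unc-97 read 32.0, 29.6 and 32.1 CPM at BRE day 17 and 14.4, 15.1 and 14.7 at BRE day 6. It read 25.8, 31.2 and 31.3 CPM at OP50 day 17 and 15.0, 16.8 and 15.8 at OP50 day 6. It rose by 1.08 (SE 0.14, adjusted p = 1.09e-06) in BRE and 0.89 (SE 0.14, adjusted p = 1.41e-05) in OP50 worms, again with no overlap of days. The kindlin gene unc-112 and perlecan unc-52 rose by 0.73 and 1.40 in BRE worms (adjusted p = 0.00122 and 0.00262). Both rose in OP50 worms too, by 0.50 and 0.90 (adjusted p = 0.0169 and 0.0368).

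The other rises were in act-4, unc-60, tni-1 and the giant genes. Long genes outside the set rose too, with counts given below. The actin act-4 rose by 1.24 (SE 0.21, adjusted p = 5.13e-05) in BRE and 0.92 (SE 0.21, adjusted p = 0.00108) in OP50 worms. The cofilin gene unc-60 rose by 1.33 (SE 0.29, adjusted p = 0.000657) in BRE and 1.30 (SE 0.29, adjusted p = 0.000774) in OP50 worms. Its values are uncertain because of the overlap with F53E2.2 given above. The troponin I gene tni-1 rose by 1.19 (SE 0.27, adjusted p = 0.000957) in BRE and 0.95 (SE 0.27, adjusted p = 0.00574) in OP50 worms. In BRE worms ttn-1 rose by 2.75 (SE 0.63, adjusted p = 0.000934), unc-89 by 2.17 (SE 0.64, adjusted p = 0.00702) and unc-68 by 1.41 (SE 0.37, adjusted p = 0.00285). In OP50 worms ttn-1 rose by 1.68 (SE 0.61, adjusted p = 0.0235), and unc-89 and unc-68 had differences of 1.18 (SE 0.62, adjusted p = 0.111) and 0.70 (SE 0.36, adjusted p = 0.104). Whether these changes differed between the diets was tested directly, and edgeR called no member, beside 0% of all genes. At an unadjusted p under 0.05 there was no member either, beside 1.83% of all genes, and DESeq2 called no member, beside 0.0201% of the genes it adjusted.

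With each library left out, 16 of the 18 calls after day 6 held in BRE worms. The exceptions were myo-1, given above, and act-2, which was lost without BRE day 6 replicate 1 or BRE day 17 replicate 3 (adjusted p = 0.0515 and 0.0764). In OP50 worms 11 of the 17 held, and unc-27 and unc-45 were given above. The call of tni-1 ended without OP50 day 17 replicate 3 (adjusted p = 0.0561). Those of ttn-1, unc-52 and unc-112 ended without OP50 day 6 replicate 1 (0.0995, 0.155 and 0.0859) and without OP50 day 17 replicate 2 (0.0558, 0.152 and 0.0844) or replicate 3 (0.0695, 0.0935 and 0.0789). The ttn-1 call also ended without OP50 day 6 replicate 3 (0.0776) and the unc-52 call without OP50 day 6 replicate 2 (0.0577). Deviations of libraries with the same number correlated across these days, and with a block on the replicate number the OP50 count was 26, with 12 up and 14 down, against 34% and 25.1% of all genes in that fit. In that fit the share of members that fell was above that of all genes, and this difference was not tested. The 9 added were unc-89 and unc-68 upward and unc-54, mlc-3, act-1, act-3, lev-11, unc-87 and dim-1 downward. Without the 4 libraries rich in sperm transcripts, 12 rose and 8 fell in each diet, where 34.3% of all genes rose and 23.3% fell in BRE worms and 32.4% rose and 19.7% fell in OP50 worms.

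**Figure D3:**
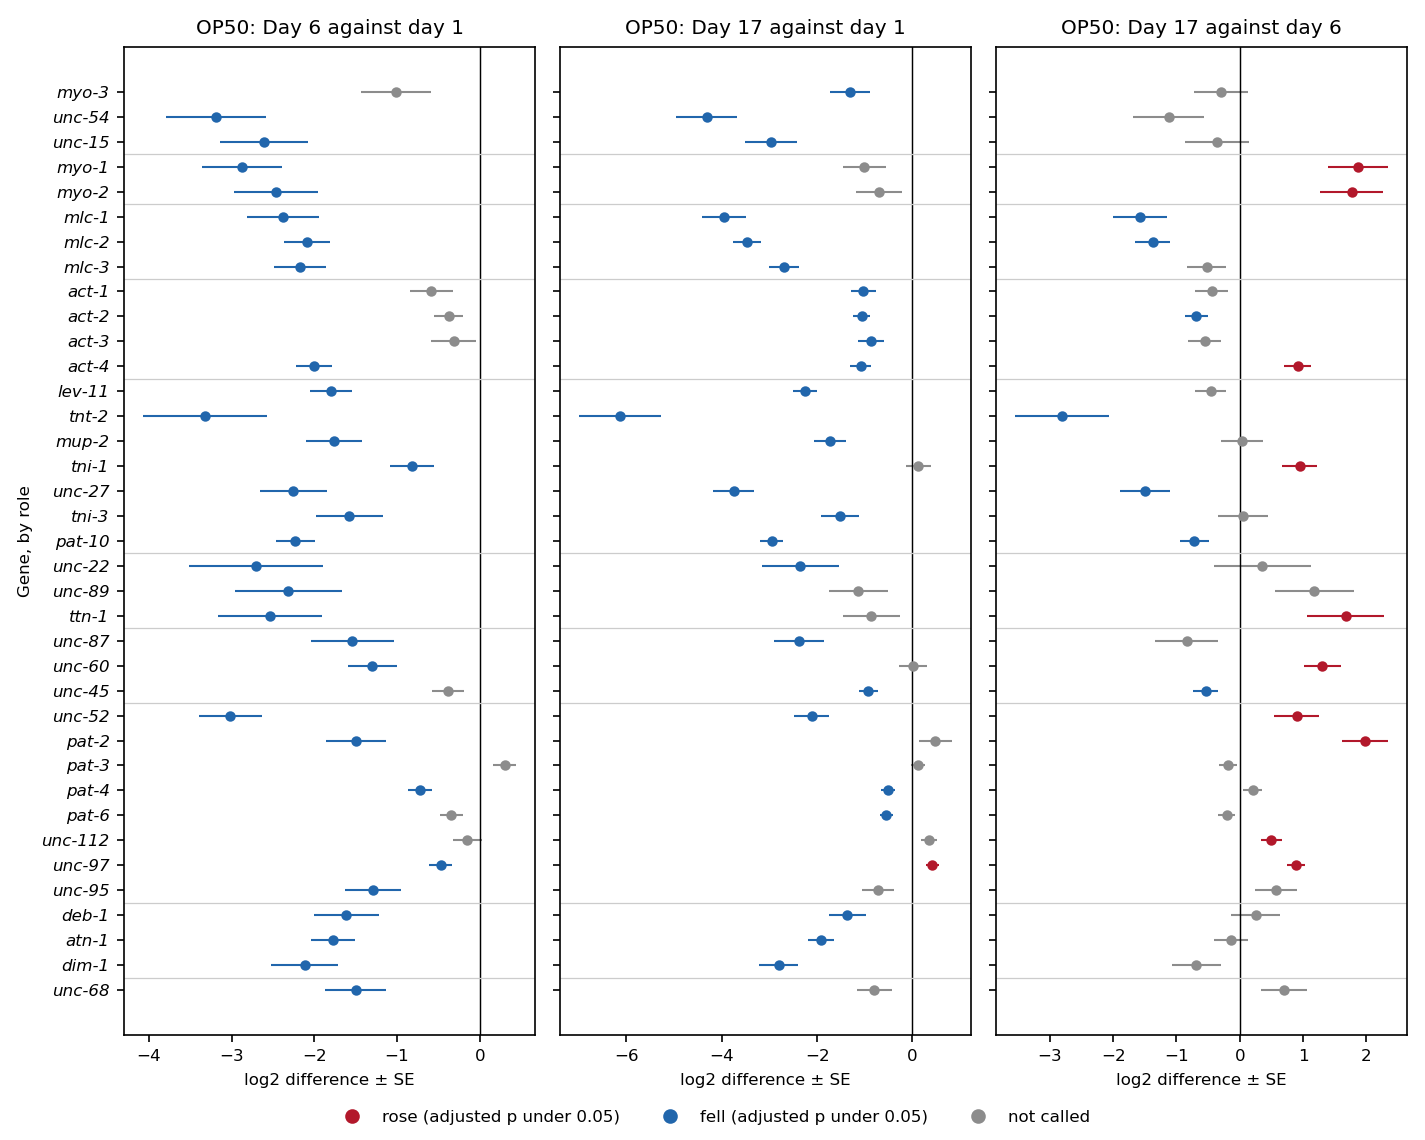
Points are log2 differences in OP50 worms with bars of 1 SE, for the 37 members by role, in 3 comparisons: day 6 against day 1, day 17 against day 1 and day 17 against day 6. In the first panel every point but pat-3 is left of 0, and in the second 6 of the 37 are right of it, while in the last the pharyngeal myosins, act-4, tni-1, unc-60, ttn-1, unc-52, pat-2, unc-112 and unc-97 lie to the right and are called.

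Body wall myosin heavy chains were then set against pharyngeal ones within each library, as a ratio of CPM per kb of exon. This removes the library's scaling. The ratios describe these heavy chain genes only, not all genes of either muscle. The transcription factor gene unc-120, also listed as a body wall marker, rose after day 6 in OP50 worms, as given below. The sum of the 3 listed muscle transcription factors was also higher at day 17 than at day 6 in both diets. The ratio of myo-3 to myo-2 in BRE worms was 4.92, 4.23 and 9.10 at day 6, 2.49, 4.23 and 2.49 at day 11, 1.38, 1.95 and 2.19 at day 15 and 1.63, 1.30 and 1.92 at day 17. In OP50 worms it was 2.45, 2.19 and 2.44 at day 1, 8.51, 5.34 and 7.79 at day 6, 2.39, 2.78 and 2.57 at day 11, 1.69, 1.7 and 2.51 at day 15 and 1.53, 1.54 and 1.54 at day 17. The ratio peaked at day 6, where the pharyngeal genes were lowest, and day 17 did not overlap day 6 in either diet.

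The ratio of unc-54 to myo-2 moved further. In BRE worms it was 20.0, 21.7 and 42.7 at day 6, 14.3, 20.1 and 8.14 at day 11, 10.3, 6.26 and 6.49 at day 15 and 5.69, 4.05 and 4.81 at day 17. In OP50 worms it was 58.3, 57.4 and 45.4 at day 1, 32.2, 30.8 and 38.7 at day 6, 11.3, 9.91 and 8.07 at day 11, 5.0, 4.92 and 7.51 at day 15 and 4.32, 4.74 and 4.04 at day 17. The OP50 libraries of day 1 were the highest, and in both diets each later mean was lower than the one before it.

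Over both diets, day 17 against day 6, the ratio of myo-3 to myo-2 was 4.07-fold lower, myo-3 to myo-1 3.84-fold, unc-54 to myo-2 6.53-fold and unc-54 to myo-1 6.16-fold lower. A two-sided exact permutation test of the log2 ratio, with the 400 permutations of day labels within each diet, gave p = 0.005 for each of the 4, the smallest it can give (0.005 adjusted over the 4). The test was added after the values had been seen. It did not keep replicate numbers together, although libraries of the same number correlated across these days. The 4 ratios share genes and are not independent. The ratio of the pharyngeal pair, myo-1 to myo-2, had p = 0.45 in the same exact permutation test. Both ratios with myo-3 had their highest means at day 6, so these folds start from a peak. In OP50 worms, day 17 against day 1, myo-3 to myo-2 was 1.54-fold lower and myo-3 to myo-1 1.26-fold. The ratios of unc-54 to myo-2 and to myo-1 were 12.2-fold and 10-fold lower than at day 1. Against day 1 there are only 3 OP50 libraries on each side, which cannot give an exact permutation p under 0.1.

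**Figure D4:**
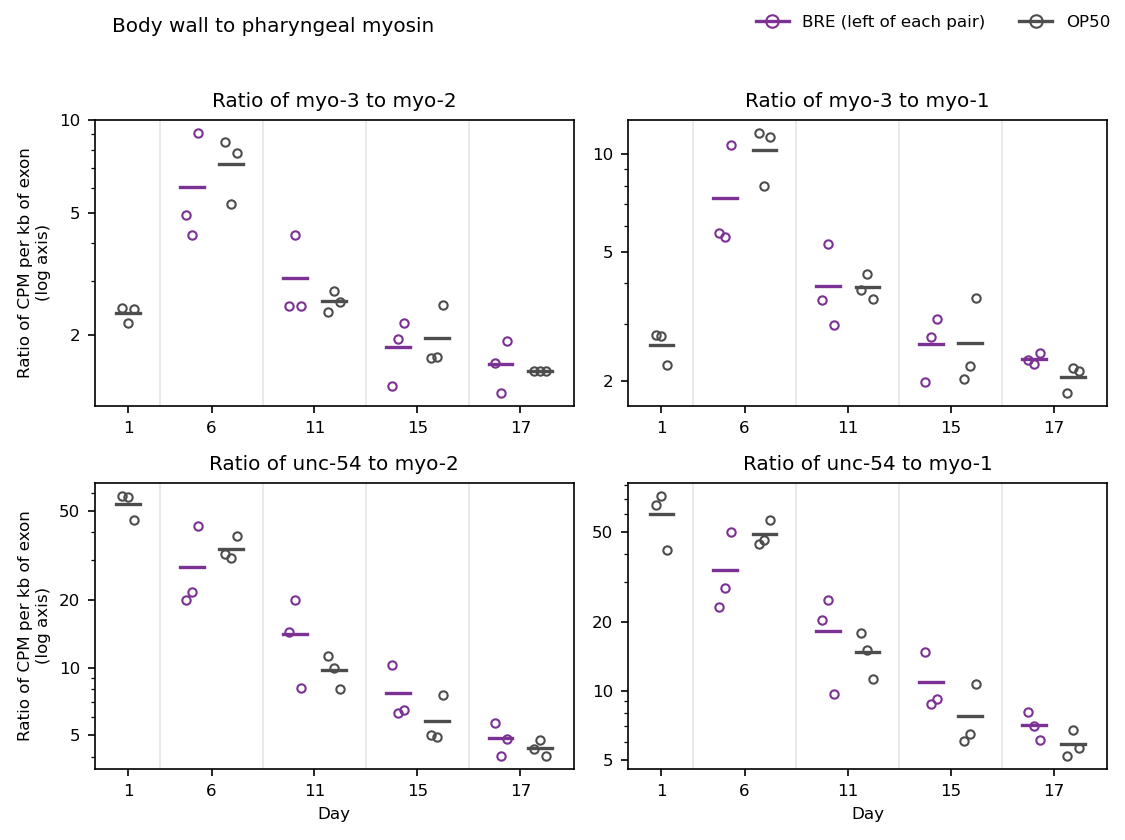
Points are the ratio of CPM per kb of exon in single libraries on a log axis against day, BRE to the left of OP50, with a bar at the mean. All 4 ratios of body wall to pharyngeal heavy chains at day 17 lie below day 6 in both diets. The means of the 2 ratios with unc-54 are highest at day 1.

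The third question was what the extract did, BRE against OP50 on the same day. No member was called on any day. Of all genes tested, 0.0156% were called on day 6, 0.0104% on day 11, 0% on day 15 and 0% on day 17. At an unadjusted p under 0.05 there were 0, 1, 3 and 2 of the 37 members on these days, beside 2.4%, 2.56%, 2.83% and 8.13% of all genes. DESeq2 called no member on any of them, beside 0.0436%, 0.0235%, 0.279% and 0.0101% of the genes it adjusted. The average of the 4 days called no member, beside 0.0467% of genes, and the joint test of a difference between days none, beside 0%. At an unadjusted p under 0.05 the average gave 0 members, beside 3.65% of all genes, and the joint test 2, beside 3%. DESeq2 called none in either, beside 0.119% and 0.0201%. The smallest adjusted p of any member on a single day was 0.607, for unc-45 at day 17.

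The members' differences had one sign more often than the other on 3 of the 4 days; members of one library are not independent. Of the 37, 7 were higher in BRE on day 6, 25 on day 11, 36 on day 15 and 19 on day 17, with medians of -0.172, 0.141, 0.283 and 0.00671. Beside them, the median over all genes tested was -0.0416, 0.0279, 0.00961 and -0.00957. These counts moved with single libraries: without OP50 day 6 replicate 2, 29 members were higher in BRE on day 6, without BRE day 11 replicate 2, 8 on day 11, and without BRE day 15 replicate 1, 28 on day 15. On day 17 the count was 28 without OP50 day 17 replicate 2. At day 15 the BRE libraries were far apart. Replicate 1 was the highest of its group for 26 members. In it tnt-2 read 43.2 CPM and unc-54 279, against at most 11.4 and 74.3 CPM in OP50 day 15 libraries. BRE replicate 3 of that day was the lowest of its group for 33 members.

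The largest differences in each direction show how wide the errors were. At day 6 myo-1 was highest with 0.44 (SE 0.46, adjusted p = 1) and tnt-2 lowest with -0.42 (SE 0.69, adjusted p = 1). At day 11 tnt-2 had 0.98 (SE 0.70, adjusted p = 1) and unc-68 -0.36 (SE 0.36, adjusted p = 1). At day 15 tnt-2 had 1.72 (SE 0.71, adjusted p = 1) and unc-60 -0.01 (SE 0.29, adjusted p = 1). At day 17 ttn-1 had 0.78 (SE 0.59, adjusted p = 0.75) and unc-27 -0.46 (SE 0.39, adjusted p = 0.778). In the average over days tnt-2 had 0.48 (SE 0.35, adjusted p = 0.967) and act-3 -0.21 (SE 0.13, adjusted p = 0.967).

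For the 4 myosin heavy chains the average difference over days came with 95% intervals of -0.10 to 1.00 for unc-54, -0.23 to 0.59 for myo-3, -0.27 to 0.68 for myo-2 and -0.19 to 0.70 for myo-1. These intervals are approximate and on the log2 scale. For 35 of the 37 members the interval of the average lay inside 2-fold in both directions, so a larger average effect on them lies outside these intervals. On single days 26, 23, 20 and 22 of the 37 intervals lay inside 2-fold, and the others reached past it. The exceptions in the average were unc-22 and tnt-2.

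At day 17 the extract difference of a member went with its length. Over the 37 members, the log2 difference at day 17 and the log2 of exon length had a Pearson r of 0.89 and a Spearman rho of 0.87, as a description of members that share the same 6 libraries. The 5 members with at least 10 kb of exon, unc-22, unc-89, ttn-1, unc-52 and unc-68, had a median of 0.747, the 14 of 2 to 10 kb one of 0.271 and the 18 under 2 kb one of -0.19. Outside the set, over 19251 other genes the Spearman rho was 0.49, and the 48 others of at least 10 kb had a median of 0.65, with none called. At days 6, 11 and 15 the members' Spearman rho was 0.39, -0.44 and 0.17.

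Long genes outside the set also differed between libraries. In these 48 genes that are no members, the median deviation of log2 CPM from the gene's mean over 27 libraries was 0.752, 0.427 and 0.479 in the BRE day 17 libraries and -0.695, 0.273 and 0.172 in those of OP50 day 17. It was lowest in OP50 day 6 replicate 1, at -1.09, and BRE day 11 replicate 3, at -0.807. In those same libraries unc-22 read 3.13 and 5.23 CPM, the lowest of their groups. The long members ttn-1, unc-89, unc-68 and unc-52 rose after day 6 in BRE worms, where this measure averaged 0.552 at day 17 and -0.386 at day 6, and its part in their rises was not tested. In OP50 worms it averaged -0.0833 at day 17, -0.588 at day 6 and 0.305 at day 1. Of the 48 genes, 27 rose and 1 fell in BRE worms, day 17 against day 6, where 32.7% of all genes rose and 22% fell. In OP50 worms 18 of the 48 rose and 5 fell, against 32.5% and 23.5%. At OP50 day 6 against day 1, 0 rose and 22 fell, against 14% and 19%. The length limits were chosen after the values had been seen.

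**Figure D5:**
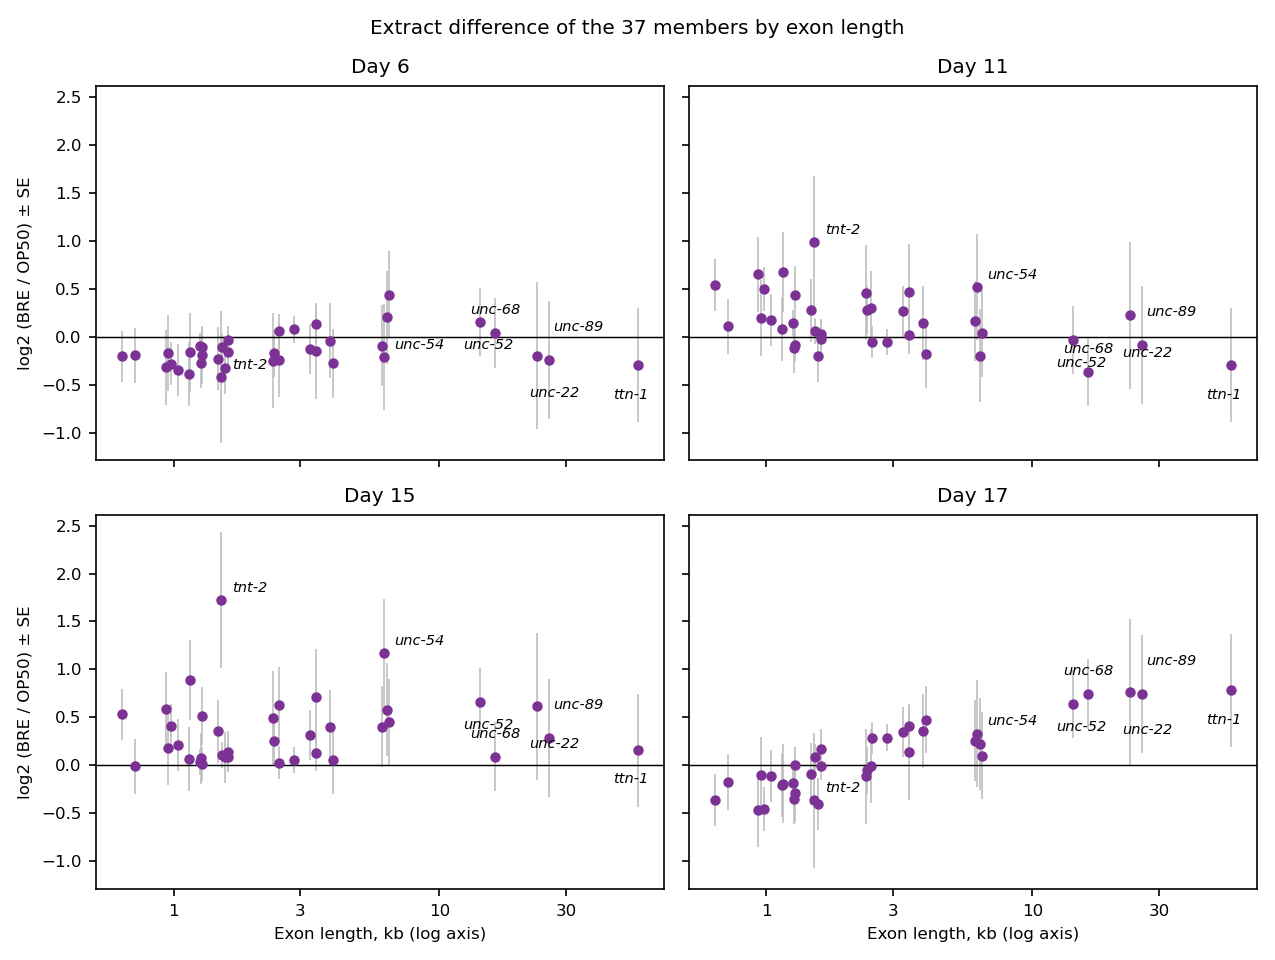
Points are the 37 members, with the log2 ratio of BRE to OP50 and bars of 1 SE against exon length on a log axis, 1 panel a day. At day 17 the 5 members of 10 kb or more lie above 0 and most members under 2 kb below it, while at day 11 4 of these 5 lie below 0.

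Other muscle genes were described from written lists. Of all genes tested, 24.8% fell and 29.1% rose at OP50 day 17 against day 1. Against day 6, 23.5% fell and 32.5% rose. No list was tested against these shares. Of 5 further genes of pharyngeal muscle, day 17 against day 6 in OP50 worms, 4 rose and 0 fell, with the pharyngeal troponin genes tnt-4 and tnc-2 at 2.29 (SE 0.48, adjusted p = 0.000446) and 1.25 (SE 0.25, adjusted p = 0.000257). Against day 1, 0 of the 5 were called at day 17. Of 20 other sarcomere genes, 7 fell and 4 rose at day 17 against day 1. Among them zyx-1, the zyxin of the dense body, had a difference of -2.17 (SE 0.28, adjusted p = 1.27e-06) and alp-1, a LIM-domain partner of α-actinin, one of -1.82 (SE 0.30, adjusted p = 2.2e-05). Of 16 genes of muscle excitation and calcium handling, 5 fell and 2 rose, and the calcium store protein calsequestrin, csq-1, fell by 4.02 (SE 0.46, adjusted p = 1.94e-07). Of 10 genes of the muscle basement membrane, 5 fell and 0 rose, with the collagen IV gene emb-9 at -2.09 (SE 0.33, adjusted p = 1.84e-05). Of the 3 muscle transcription factors 1 fell, hnd-1, with a difference of -1.14 (SE 0.31, adjusted p = 0.00383). After day 6 in OP50 worms unc-120, the worm's serum response factor, rose by 2.05 (SE 0.27, adjusted p = 1.54e-06). Before TMM scaling the 3 factors summed in OP50 worms to 15.86 ± 7.23 CPM on day 1, 4.53 ± 0.666 on day 6 and 19.15 ± 3.0 on day 17. In BRE worms they summed to 3.61 ± 0.477 CPM on day 6 and 18.71 ± 1.42 on day 17 (n = 3 each, with SD).

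Other lists stand beside muscle without being specific to it. Their counts at day 17 against day 1 stand beside 24.8% of all genes that fell and 29.1% that rose. Of 7 chaperone and quality control genes of myosin, 4 fell and 1 rose at day 17 against day 1, with ufd-2, a ubiquitin ligase partner of UNC-45, at -0.86 (SE 0.10, adjusted p = 3.84e-07). Of 8 nonmuscle actomyosin genes, 4 fell and 0 rose, with the nonmuscle myosin nmy-2 at -0.83 (SE 0.12, adjusted p = 3.65e-06). Of 9 genes of the epidermal attachments that carry muscle force to the cuticle, 4 fell and 0 rose, and of 7 dystrophin complex genes 1 fell and 1 rose. BRE against OP50 called none of the genes of these lists at day 17, beside 0% of all genes.

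Markers of other tissues were described over the same days. Beside them, 24.8% of all genes fell and 29.1% rose at OP50 day 17 against day 1. Against day 6, 23.5% of all genes fell and 32.5% rose. Of 9 intestine markers, 7 fell and 0 rose at OP50 day 17 against day 1, with a median of -2.35, and of 12 neuron markers, 3 fell and 2 rose, with a median of -0.194. Of 8 epidermis markers, 3 fell and 0 rose. Of 11 oocyte and eggshell markers, 7 fell and 2 rose, of 13 sperm markers 1 fell and 1 rose, and of 9 markers of zygotic embryos 4 fell and 0 rose. Day 17 against day 6 in OP50 worms, 7 of the 12 neuron markers rose and 0 fell, and 9 of the 13 sperm markers rose and 0 fell. Markers of zygotic embryos, whose muscle also expresses these genes, summed in OP50 worms to 16.3 ± 3.78 CPM before TMM scaling on day 1, 15.7 ± 0.963 on day 6, 14.7 ± 2.54 on day 11, 9.997 ± 2.88 on day 15 and 8.82 ± 0.899 on day 17 (n = 3 each, with SD). Between day 1 and day 6 this sum changed by less than the spread between replicates. What part embryos or other tissues had in the members' changes was not tested.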

How the data were processed

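Whole-worm RNA-seq was analysed for 27 libraries in 9 groups. The authors deposited raw counts per gene with no normalization. The submitters' processing notes name HISAT2 2.0.5, featureCounts, SAMtools 1.7, Trimmomatic and FastQC. The sources used here do not give the strand setting, the treatment of multiply mapped reads or the build. Between 54.5% and 68.9% of the counts from 1 to 20 were even numbers, depending on the library, and 1 count may thus not be 1 fragment. Symbols, exon lengths and coordinates came from the Ensembl WBcel235 annotation, which held 46924 of the 46934 IDs, and these coordinates are not the authors'.

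Counts were fitted in R 4.3.3 with edgeR 4.0.16: TMM, filterByExpr (minimum count 10), 9 group means over 27 libraries, quasi-likelihood tests, Benjamini-Hochberg adjustment over 19290 genes, threshold 0.05. Each SE is the size of the log2 difference divided by the root of its F statistic, and 95% intervals are normal approximations. CPM is the count scaled to a common library size after TMM, given as mean ± SD. DESeq2 1.42.0 was an alternative, with a likelihood ratio test for the joint comparison of days. The fit was tested on simulated data. Exact permutation tests served the myosin ratios.

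The members and lists were chosen with earlier results of these data known. Values in every library are printed for the 4 myosin heavy chains and, per role, for the member with the highest mean CPM and the one with the smallest adjusted p at OP50 day 17 against day 1; tnt-2, pat-2 and unc-97 were added as extremes. Nothing says that replicates came from separate cultures, so p-values measure the spread between these samples. Whether replicate numbers pair libraries was judged from correlations of deviations from group means. Over all tested genes every same-number correlation exceeded 0.1 for BRE with OP50 at days 6 (0.22, 0.19 and 0.31) and 11 (0.50, 0.41 and 0.22), and across days 17 and 6 in BRE (0.15, 0.15 and 0.26) and OP50 (0.26, 0.18 and 0.14). That gene set replaced a first check on the 11199 genes with a mean log2 CPM above 0, after its correlations had been seen and before any blocked result was. In the first check day 17 met the criterion (0.32, 0.52 and 0.46) and day 11 did not (0.27, 0.62 and 0.08), and the other 3 cases were the same.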

Additional observations from a re-analysis of the deposited data

How the results depend on the processing

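The counts of members called were recomputed with DESeq2, RLE size factors, library totals alone, no filter, only the groups compared, a replicate block, each library left out, and, chosen after seeing the data, without the 4 libraries richest in sperm transcripts. All stayed within 1.5 times the reported count except OP50 day 17 against day 6 with the replicate block, 26 against 17; the block has fewer residual degrees of freedom and the cause was not tested. For BRE against OP50 the count was 0 under every setting run, the replicate block included, whichever gene set decides the pairing. With 1 library left out, the counts ran from 24 to 30 at OP50 day 6, 28 to 31 at day 11, 21 to 27 at day 15 and 23 to 28 at day 17 against day 1, 17 to 19 for BRE and 12 to 19 for OP50, day 17 against day 6. The sign of BRE against OP50, never called, rested on 1 library for 27 members on day 6, 29 on day 11, 15 on day 15 and 17 on day 17. Of the 24 single-gene results rerun one by one, 4 changed sign in this way, 3 of them on single days. With 1 left out, tnt-2 at day 6 ran from -1.02 to 0.449 (positive without OP50 day 6 replicate 2), unc-68 at day 11 from -0.689 to 0.0131 (without OP50 day 11 replicate 3) and unc-60 at day 15 from -0.215 to 0.149 (positive when OP50 day 15 replicate 2, or BRE day 15 replicate 3, was dropped). The change of the myo-1 difference between days 6 and 17 ran from -1.07 to 0.053 (positive without BRE day 6 replicate 2). RLE size factors ended 1 call, unc-68 at day 11, and DESeq2 ended none. Against day 1 no pairing was found, and the block added 1 to 5 members and ended no call. With 3 libraries a group, a 2-fold effect of the extract on a single day stayed within the interval for 11 to 17 of the 37 members.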
